A study of Mus musculus with 6 samples.

Results

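Ms4a genes encode small proteins that cross the cell membrane several times and sit beside receptors of immune cells. They lie side by side in 1 gene cluster, and in human cohorts common variants of the matching cluster are linked to the risk of Alzheimer's disease and to the level of soluble TREM2, a shed microglial receptor. Ms4a4c, Ms4a6b, Ms4a6c, Ms4a6d and Ms4a7 were taken by symbol from the gene table, which makes 5 of its 17469 genes. All 5 are known from mouse macrophages, monocytes or microglia, and all 5 had enough reads to be tested among 12701 genes.

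RNA-seq compared cells from bone marrow cultures of 6-month-old mice, with 3 libraries of each of 2 genotypes. Control mice were OCN-Cre;Ai9, and the others were TgAPPsweOCN;Ai9, labelled TgAPPswe;Ocn-Cre;Ai9. Both genotypes carried OCN-Cre, in which the osteocalcin promoter drives Cre recombinase, and Ai9, a reporter that turns on the red protein tdTomato in cells with Cre activity. The TgAPPsweOCN;Ai9 mice had in addition a human APPswe transgene (Swedish mutant amyloid precursor protein) behind a CAG promoter, which Cre releases. Attached marrow cells (BMSCs) of femurs and tibias were cultured and passaged, and RNA was taken from the tdTomato+ fraction after sorting. OCN-Cre is also active in some neurons of these mice, and the number of mice behind each library is not given in the sources used here, so p-values measure the spread between these libraries, which may be technical.

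Libraries held 19340810 to 19801060 estimated counts in control and 21677461 to 22037840 in TgAPPsweOCN;Ai9 cells. Summed over 15 myeloid markers, FPKM came to 19347 to 20117 in control and 15762 to 19535 in TgAPPsweOCN;Ai9 libraries, against 159 to 177 and 129 to 210 for 15 stromal and osteoblast-lineage markers. FPKM corrects the fragments of a gene for transcript length and sequencing depth, so FPKM levels can be compared between genes. Bglap, which encodes osteocalcin, was at 0.35 to 1.25 FPKM in control and 0.00 to 0.49 in TgAPPsweOCN;Ai9 libraries. App, whose single entry does not separate mouse from human transcripts, had a log2 fold change of 0.45 (adjusted p = 7.87e-05, edgeR). In such bulk RNA, fewer cells of a type and less RNA per cell cannot be told apart.

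All 5 genes lie on mouse chromosome 19 (RefSeq positions, build GRCm38.p6). The forward strand carries Ms4a4c (11404717 to 11427246), Ms4a6c (11469353 to 11487182) and Ms4a6b (11518559 to 11530403). Ms4a7 (11321039 to 11336146) and Ms4a6d (11586606 to 11604804) lie on the reverse strand. Their coding sequences show how near the copies are. Ms4a6b and Ms4a6c were identical at 85.4% of aligned coding bases, Ms4a6b and Ms4a6d at 81.2%, and Ms4a6c and Ms4a6d at 79%. Ms4a7 was identical to them at 62.5% to 64%, and to Ms4a4c at 57.9%. The closest relative of Ms4a4c was Ms4a4b, at 91.7% over 678 coding bases. The first 60 coding bases of the Ms4a6 genes, from the GENCODE transcripts of the same build, are shown because reads from these genes had to be told apart. Capitals mark the 12 positions at which the sequences were not all alike, so most of this stretch is shared.

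Ms4a6b: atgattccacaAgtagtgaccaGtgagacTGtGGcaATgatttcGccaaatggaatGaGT
Ms4a6c: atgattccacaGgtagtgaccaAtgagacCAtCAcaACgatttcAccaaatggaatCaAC
Ms4a6d: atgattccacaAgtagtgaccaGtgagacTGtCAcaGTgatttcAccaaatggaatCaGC

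Ms4a4c, Ms4a6b, Ms4a6c and Ms4a6d were up-regulated in TgAPPsweOCN;Ai9 cells, and Ms4a7 was the single gene of the 5 with a lower level. A gene counts as up-regulated when the quasi-likelihood test of edgeR, adjusted by Benjamini-Hochberg over all tested genes, gives a p of at most 0.05 and the log2 fold change reaches 1. By this rule 4 of the 5 genes rose, beside 8.9% of all tested genes, and 0 fell, beside 9.2%. By the adjusted p alone, 4 were higher and 1 was lower, beside 32.5% and 31.5% of all tested genes. The FPKM values of the genotypes did not overlap for any of the 5, which also held for 72.3% of all tested genes, so the lack of overlap by itself was common in these libraries.

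Ms4a4c, a family member known to be induced by interferon in mouse myeloid cells, had the largest change of the 5. Its level was 4.84, 2.24 and 3.82 FPKM in control libraries 1, 2 and 3. In TgAPPsweOCN;Ai9 libraries 1, 2 and 3 it was 39.89, 70.39 and 53.91 FPKM. Even the lowest TgAPPsweOCN;Ai9 library stood far above the highest control library. The mean rose from 3.63 ± 1.31 to 54.7 ± 15.3 FPKM (SD, n = 3), a 15.1-fold ratio, and the log2 fold change was 4.11 (standard error, SE, 0.277, edgeR adjusted p = 4.23e-06). This change was the 122nd largest rise of all tested genes. Ms4a4c thereby moved from a middling level, rank 9053 of the 17469 genes by mean FPKM, to rank 1543. Its control values rested on few reads, 160, 73 and 124 estimated counts.

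Ms4a6d, a macrophage member of the Ms4a6 group, was the most abundant of the 5 genes after the change. Control libraries 1, 2 and 3 held 212.83, 204.64 and 207.69 FPKM, a narrow range. TgAPPsweOCN;Ai9 libraries 1, 2 and 3 held 929.08, 724.22 and 802.09 FPKM. Every TgAPPsweOCN;Ai9 library was above every control library, and library 1 was the highest. From 208 ± 4.14 to 818 ± 103 FPKM (SD, n = 3), the ratio was 3.93 and the log2 fold change 2.19 (SE 0.102, edgeR adjusted p = 5.71e-07). By mean level Ms4a6d went from rank 349 to rank 62 of all listed genes.

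Ms4a6c, a marker of monocytes and their descendants, followed closely. Its FPKM was 172.21, 138.7 and 150.55 for control and 574.59, 477.51 and 506.18 for TgAPPsweOCN;Ai9, each in the order of libraries 1, 2 and 3. Both genotypes were spread over a similar relative range and were far apart. The mean rose from 153.8 ± 17 to 519 ± 49.9 FPKM (SD, n = 3), a ratio of 3.38, with a log2 fold change of 2.02 (SE 0.11, edgeR adjusted p = 1.32e-06).

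Ms4a6b had the smallest of the 4 rises. Its levels in the same order were 67.44, 50.74 and 59.89 FPKM in control and 161.56, 129.13 and 145.07 FPKM in TgAPPsweOCN;Ai9 libraries. The lowest TgAPPsweOCN;Ai9 value again exceeded the highest control value. The mean rose from 59.4 ± 8.36 to 145.3 ± 16.2 FPKM (SD, n = 3), a ratio of 2.45, with a log2 fold change of 1.51 (SE 0.124, edgeR adjusted p = 1.27e-05).

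Ms4a7, widely used as a marker of tissue macrophages and of macrophages at the borders of the brain, went the other way. The control libraries held 596.96, 582.63 and 593.8 FPKM, and the TgAPPsweOCN;Ai9 libraries held 423.63, 401.09 and 399.94 FPKM. Each genotype was tight and the genotypes did not overlap. The mean was 591 ± 7.53 in control and 408 ± 13.4 in TgAPPsweOCN;Ai9 cells (SD, n = 3). The log2 fold change of -0.32 (SE 0.0578, edgeR adjusted p = 0.00121) passed the test but not the fold threshold, so Ms4a7 was not called. Its change lay at percentile 31.5 of all tested genes, a moderate place in their range. Scaling by library size alone gave -0.54, while the same scaling moved the median of all tested genes from -0.02 to -0.23. Relative to that median the change of Ms4a7 was -0.30 with the main scaling and -0.31 with library size alone. A change of scaling shifts all genes by nearly the same amount, so these values had to be close.

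For each of the 5 genes, an exact permutation test of FPKM over the libraries gave a two-sided p of 0.1, the smallest that 3 libraries against 3 allow. The plot of levels by library shows the 4 rises and the lower level of Ms4a7 on 1 scale.

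**Figure D1:**
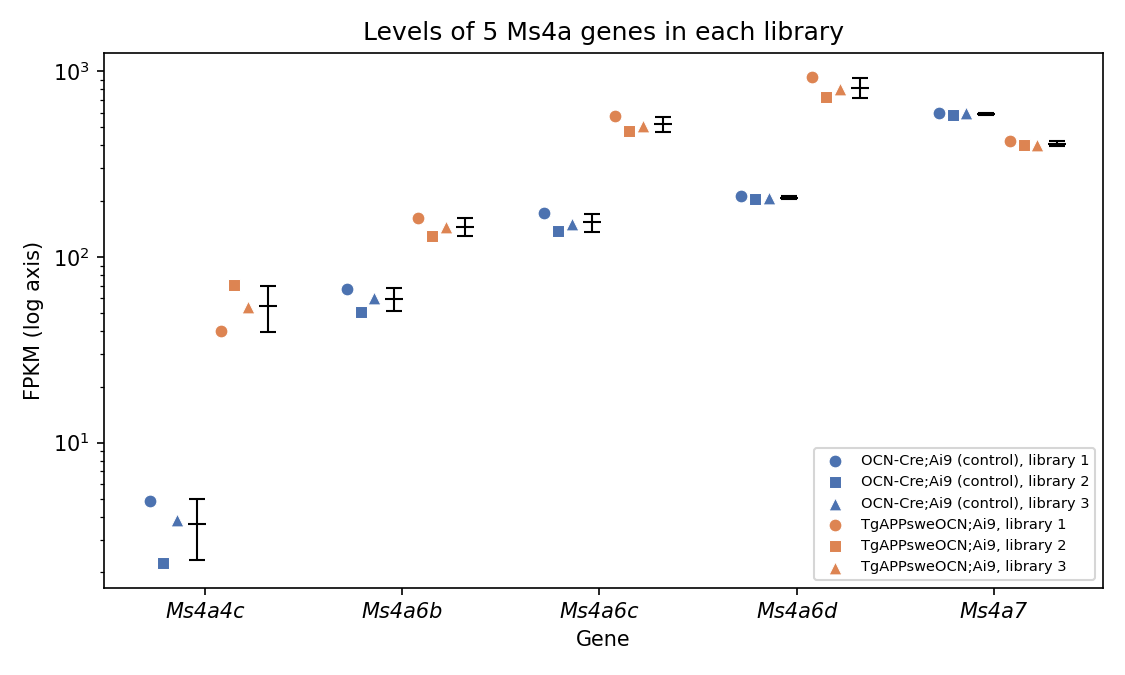
FPKM of 5 Ms4a genes on a log axis, with 1 point per library (circle, square and triangle for libraries 1, 2 and 3) and the mean ± SD of 3 libraries in black beside them. Ms4a4c rises from between 2.24 and 4.84 to between 39.89 and 70.39 FPKM, while the Ms4a7 points of TgAPPsweOCN;Ai9 lie below those of control.

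The order of the levels changed with genotype. In control cells it ran Ms4a7, Ms4a6d, Ms4a6c, Ms4a6b and Ms4a4c, from high to low. In TgAPPsweOCN;Ai9 cells Ms4a6d and Ms4a6c stood above Ms4a7, and Ms4a6b and Ms4a4c stayed last. No neighbours in either order overlapped over their 3 libraries. The nearest pair in control was Ms4a6d with its lowest value of 204.64 FPKM above the highest Ms4a6c value of 172.21 FPKM. The nearest pair in TgAPPsweOCN;Ai9 cells was Ms4a6c with 477.51 FPKM above Ms4a7 with 423.63 FPKM.

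The summed FPKM of the 5 genes rose from 1016 ± 37.7 to 1946 ± 167 (SD, n = 3), and its make-up shifted. Ms4a7 made up 58.2% ± 1.46 of the sum in control and 21% ± 1.18 in TgAPPsweOCN;Ai9 cells. Ms4a6d went from 20.5% ± 0.363 to 42% ± 1.73 and Ms4a6c from 15.1% ± 1.11 to 26.7% ± 0.275. Ms4a6b took 5.83% ± 0.61 and 7.45% ± 0.25, and Ms4a4c 0.355% ± 0.117 and 2.87% ± 1.02. Ms4a7 held the largest share in each of the 3 control libraries, and Ms4a6d in each of the 3 TgAPPsweOCN;Ai9 libraries.

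**Figure D2:**
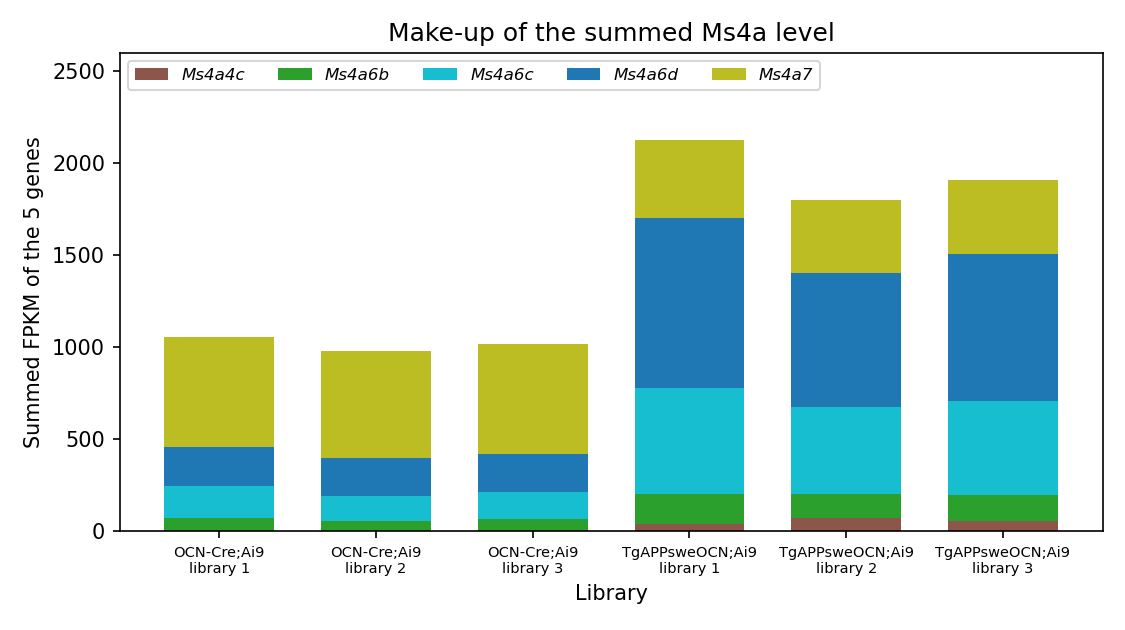
Summed FPKM of the 5 genes in each library, as stacked bars from 0 with 1 colour per gene. The control bars end between 979 and 1054 and are mostly Ms4a7, and the TgAPPsweOCN;Ai9 bars end between 1802 and 2129 and are mostly Ms4a6d and Ms4a6c.

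Whether the genes differed from each other in their change was read from the ratio of each pair within a library, which does not depend on how libraries were scaled. For each of the 10 pairs the ratios of the genotypes did not overlap, with an exact permutation p of 0.1 (two-sided, adjusted over the 10 pairs 0.1), the smallest possible. This held for 68.4% of all pairs of tested genes with an FPKM above 0 in every library, so the lack of overlap was common among ratios too, and the sizes of the shifts are given instead. The ratio of Ms4a4c to Ms4a7 moved most, by 4.48 on the log2 scale (standard error 0.411). Against Ms4a7 the other ratios moved by 2.50 for Ms4a6d (standard error 0.0815), 2.29 for Ms4a6c (0.098) and 1.83 for Ms4a6b (0.131). Ms4a4c also gained on its relatives, by 1.98 against Ms4a6d (0.463) to 2.65 against Ms4a6b (0.392). Within the Ms4a6 group the shifts were small, at -0.67 for Ms4a6b to Ms4a6d (0.104), -0.46 for Ms4a6b to Ms4a6c (0.0446) and -0.21 for Ms4a6c to Ms4a6d (0.0793). For the last pair the nearest ratios of the genotypes were -0.56 and -0.60.

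The libraries of 1 genotype also differed among themselves. In control cells library 1 was the highest and library 2 the lowest for all 5 genes, a pattern shown by 21.8% of all tested genes. In TgAPPsweOCN;Ai9 cells Ms4a6b, Ms4a6c and Ms4a6d were highest in library 1 and lowest in library 2, as were 21.2% of all tested genes. Ms4a4c had the opposite order there, with library 2 the highest and library 1 the lowest, as did 32% of all tested genes. Of 9 listed genes that are induced by interferon, 9 shared the control pattern and 9 the order of Ms4a4c in TgAPPsweOCN;Ai9 cells. Ms4a4c spanned from -0.63 to 0.48 log2 units around its control mean and from -0.42 to 0.40 around its TgAPPsweOCN;Ai9 mean. Ms4a7 stayed within -0.02 to 0.01 and -0.03 to 0.05, the tightest of the 5 genes. What set these differences between libraries was not tested.

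**Figure D3:**
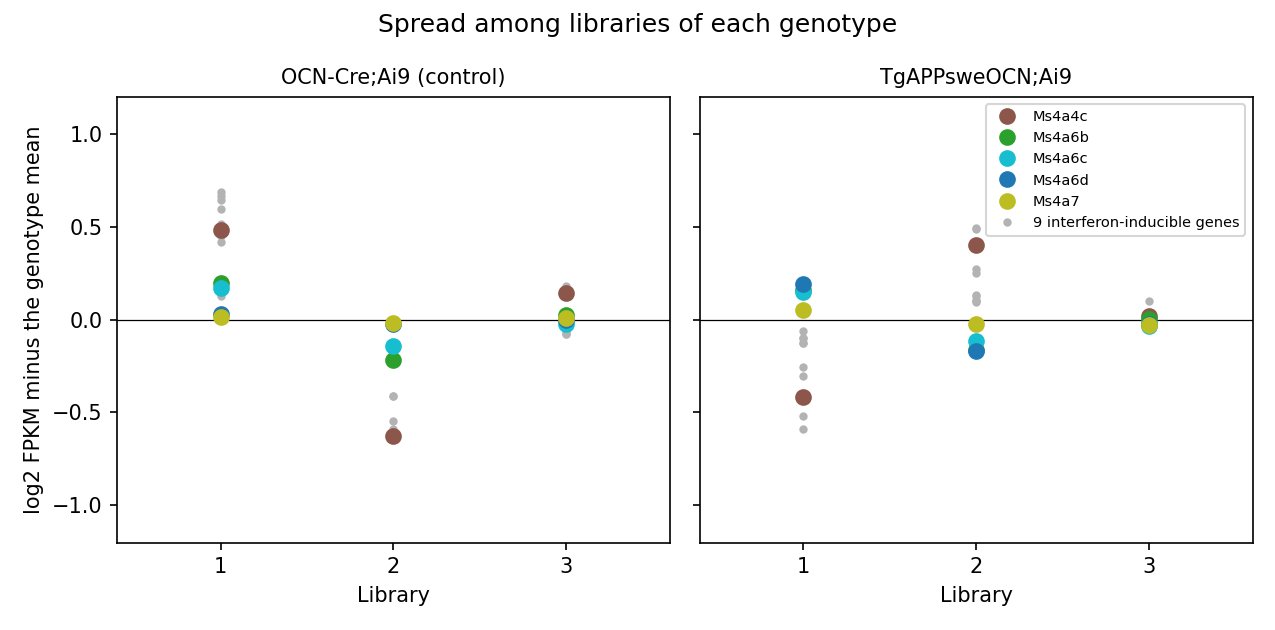
Log2 FPKM of each gene minus its mean over the 3 libraries of the same genotype, for 5 Ms4a genes (coloured) and 9 interferon-inducible genes (grey). In TgAPPsweOCN;Ai9 library 1 Ms4a4c lies at -0.42 with the grey points below 0, and Ms4a6b, Ms4a6c and Ms4a6d lie at 0.15 to 0.19.

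The 9 interferon-inducible genes of the list that were in the table (Mx1 was not) were all up-regulated, beside 8.9% of all tested genes. Their median log2 fold change was 3.50, beside -0.02 over all tested genes. The largest changes were in Usp18 (4.37), Ifit1 (3.96), Rsad2 (3.90) and Isg15 (3.90), genes of the antiviral response or its control. Ms4a4c, at 4.11, was within their range, and the Ms4a6 genes, at 1.51 to 2.19, were near Oasl2 (1.73). Across the 6 libraries the genes whose log2 CPM (counts scaled to the library total) was most like that of Ms4a4c were Parp10, Iigp1 and Oas3 (Pearson r of at least 0.9995). Those most like Ms4a6b were Asns, Gja1 and Rab4b, and most like Ms4a6c were Ikbke, Lancl1 and Gpr18. For Ms4a6d they were Slc25a10, Vcp and Rapgef1, and for Ms4a7 Zbtb2, Them6 and Gdf3. The 6 libraries form 2 groups by genotype, so such an r mostly repeats the difference between genotypes, and 54 (Ms4a7) to 757 (Ms4a6d) tested genes had an r of at least 0.99.

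Estimated counts, which divide a read among the genes it matches, need not be whole. A fractional value points to shared reads, while a whole value does not exclude them. Counted as fractional when more than 1e-06 from a whole number, Ms4a6c was so in all 6 libraries. Ms4a4c was fractional in 2 libraries, Ms4a6b in 1 and Ms4a6d in 1, while Ms4a7 had whole counts in each library. Between 13.3% and 14.4% of the genes of each library were fractional. For the Ms4a6 genes the sharing was not traced, and for Ms4a4c it could be. Ms4a4c held 2554.88 and 1939.96 estimated counts in TgAPPsweOCN;Ai9 libraries 2 and 3, and Ms4a4b held 45.12 and 17.04. Together they make 2600 and 1957, and Ms4a4b was the 1 gene that completed both values to whole numbers within 0.006. With Ms4a4b and Ms4a4c summed, a comparison added after seeing the data, the log2 fold change was 3.94. Ms4a4b weighed more in that sum in control, with 14, 16 and 19 counts beside the 160, 73 and 124 of Ms4a4c.

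For Ms4a6c the annotation shows a longer stretch in common with another transcript. Of its 1792 windows of 50 transcript bases, 1020 (56.9%) occurred in a transcript of another gene, 993 of them in BE692007. In the GENCODE annotation, which was used for this search, that transcript lies on the opposite strand and its span covers 12027 bases of the span of Ms4a6c, while the RefSeq entry is shorter (11473447 to 11482579). BE692007 is not listed in the gene table, and the strand setting of the counting is not given in the sources used here, so its reads and those of Ms4a6c cannot be told apart. In windows of 100 bases the shared part of Ms4a6c was 51.3%, and that of Ms4a6b, Ms4a6d and Ms4a7 was 0%. At 50 bases it was 8.91% for Ms4a6b, 8.48% for Ms4a4c, 2.92% for Ms4a6d and 0% for Ms4a7, which makes Ms4a7 and Ms4a6d the least shared. Counted as 1 feature, Ms4a6b, Ms4a6c and Ms4a6d rose with a log2 fold change of 2.03 (SE 0.106, edgeR adjusted p = 1.01e-06), a value that does not depend on how reads were split among them. The 5 genes counted together had a log2 fold change of 1.23 (SE 0.0841, edgeR adjusted p = 4.42e-06).

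The whole cluster runs from Ms4a10 to Ms4a3 (chromosome 19, 10962289 to 11640851, 679 kb) and holds 22 protein-coding genes in RefSeq. Of these, 16 were listed and 10 were tested. Among the tested genes 6 were up-regulated and 0 down-regulated, beside 8.9% and 9.2% of all tested genes. The tested genes of the cluster lie next to each other in the part from Ms4a14 to Ms4a6d. Beside the 4 rises already given, Ms4a4d rose from 7, 7 and 2 to 41, 61 and 44 estimated counts, a log2 fold change of 3.21 (SE 0.384, edgeR adjusted p = 1.15e-04) at a low mean level of 1.6 FPKM. Gm8369, between Ms4a6c and Ms4a6b, rose by 2.24 from 6 to 12 counts per library to 29 to 66 counts. Ms4a4a, the mouse gene named like a human Alzheimer risk gene, had a log2 fold change of 0.84 (SE 0.217, edgeR adjusted p = 0.00889), below the fold threshold. Its libraries overlapped, since TgAPPsweOCN;Ai9 library 2 held 105.4 FPKM and control library 1 held 108.76 FPKM.

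Ms4a14, the neighbour of Ms4a7, had 51.6 FPKM in control and 45.3 in TgAPPsweOCN;Ai9 cells, with a fitted log2 fold change of 0.02 (adjusted p = 0.769). Ms4a4b, a T cell gene, was at 0.7 and 1.04 FPKM (log2 fold change 0.77, adjusted p = 0.129). Over the 4 tested genes of the family outside the 5, 1 was up-regulated and 0 were down-regulated, beside 8.9% and 9.2% of all tested genes. Their median log2 fold change was 0.80. Ms4a1 (the B cell antigen CD20), Ms4a2 (a chain of the mast cell IgE receptor), Ms4a8a, Ms4a15 and Ms4a18 reached at most 0.15 FPKM in any library and were too low to test. Ms4a3, a gene of granulocyte and monocyte progenitors, was at 0.21 to 0.65 FPKM and was not tested either. The family members that mark B cells and mast cells thus averaged under the floor of 3 counts per library (0.136 to 0.155 CPM, counting error only), and Ms4a3 averaged 8 and 9 counts.

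Outside the cluster, 3 of the 5 flanking protein-coding genes on the low-coordinate side were tested and 1, Ccdc86, was up-regulated (log2 fold change 1.24). On the other side 1 of 5 was tested and was not called. Tmem176a and Tmem176b, related genes on another chromosome, were also abundant. Tmem176a rose from 209 to 769 FPKM (log2 fold change 2.10, standard error 0.084, adjusted p = 2.67e-07), close to Ms4a6d. Tmem176b was at 588 and 917 FPKM, a log2 fold change of 0.86 (edgeR adjusted p = 1.07e-05), below the fold threshold.

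**Figure D4:**
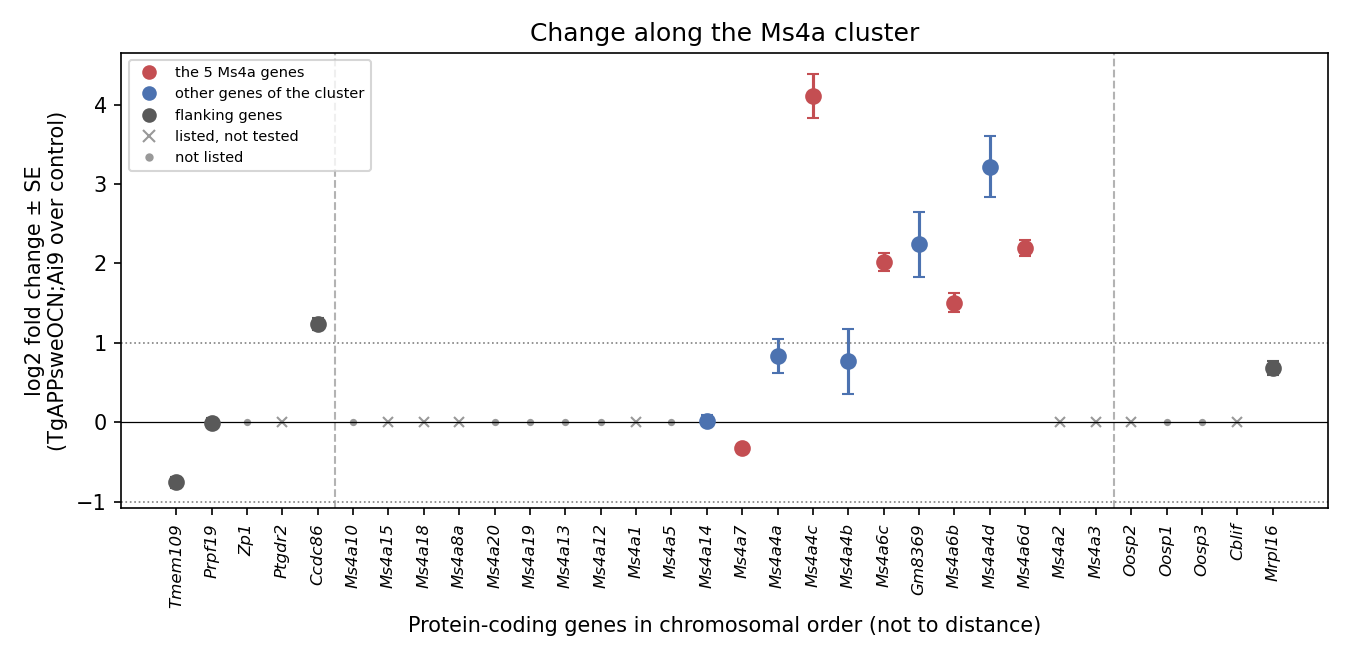
Log2 fold change ± standard error for tested protein-coding genes in chromosomal order, with the cluster between the dashed lines and the threshold of 1 in either direction dotted. Values run from -0.32 (Ms4a7) to 4.11 (Ms4a4c) within the cluster, and crosses and dots at 0 mark genes without a test.

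The promoters of Ms4a6b and Ms4a6c, genes that rose together, hold a common stretch. The windows of 67 bases below (RefSeq, build GRCm38.p6, forward strand, all upstream of an annotated start site) matched at 55 positions, or 82.1%. Capitals mark AGGAAGT, the core bound by PU.1, the transcription factor of the myeloid lineage that Spi1 encodes. It lies 86 bases upstream of the start site of Ms4a6b (window chr19:11518423-11518489) and 17 bases upstream of that of Ms4a6c (window chr19:11469301-11469367). For Ms4a6c this start site (11469368) lies 15 bases inside the gene span given above, so the core crosses the outermost annotated start.

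Ms4a6b: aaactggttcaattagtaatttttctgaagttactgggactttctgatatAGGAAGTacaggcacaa
Ms4a6c: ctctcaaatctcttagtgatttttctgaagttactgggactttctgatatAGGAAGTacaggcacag

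Promoters of 300 bases were available for 4 of the 5 genes (not Ms4a6d), and 5 motifs were searched on both strands. The window of Ms4a4c belongs to a start site at 11407661, which is 2944 bases inside its gene span, and the sequence before the outermost start of Ms4a4c was not searched. AGGAAGT occurred in 9.35% of 32851 promoters, and in those of Ms4a6b (on 2 sites, the other 43 bases upstream on the reverse strand) and Ms4a6c. TGANTCA (AP-1), present in 7.81%, occurred at the second start site of Ms4a7. The interferon response element (GAAA, any 2 bases and GAAA again, 3.44%), TTGCNNAA (C/EBP, 10.8%) and the NF-kB motif (GGG, any 2 bases and TTTCC, 1.63%) had no match in these windows, and the window of Ms4a4c matched none of the 5. The motifs did not overlap each other at these sites. A match describes the letters of the window only.

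Genes reported to act with MS4A proteins in myeloid cells did not move as 1 group. Of 7 such genes, 2 were up-regulated and 2 down-regulated, beside 8.9% and 9.2% of all tested genes. Their median log2 fold change was -0.19. Clec7a, a receptor for fungal sugars, fell by 2.74 on the log2 scale and Trem2 fell by 2.71, from between 744 and 802 to between 89.34 and 120.22 FPKM. Syk, a kinase downstream of such receptors, rose by 1.53, and Fcer1g, an adaptor chain, rose by 1.11. With scaling by library size alone 3 of the 7 were called in place of 4, since Fcer1g then had a log2 fold change of 0.90. Trem2 and Ms4a7 were both lower and the 4 other Ms4a genes higher in TgAPPsweOCN;Ai9 cells. Of 13 genes linked to Alzheimer's disease risk that myeloid cells express, 1 was up-regulated and 4 were down-regulated (median -0.26). The shares over all tested genes were again 8.9% and 9.2%. Called lower were Trem2, Apoe (-2.23), Cd33 (-1.49) and Sorl1 (-1.23). The rise, named after its value was seen, was Cd2ap (1.06), which was at 0.84 and not called with library size alone. Under that scaling, which moved the median of all tested genes from -0.02 to -0.23, Abi3 was down-regulated as well (-1.02). Then 0 of the 13 were called up-regulated and 5 down-regulated, while Cd2ap stayed higher by the test (edgeR adjusted p = 2.47e-05).

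Markers of macrophages themselves moved in both directions. Of 15 myeloid markers, 4 were up-regulated and 5 down-regulated (median -0.13), beside 8.9% and 9.2% of all tested genes. With library size alone 3 were up-regulated, without Fcer1g. Lyz2, a lysozyme, was the most abundant of them, with a mean of 9057 FPKM in control and 6977 in TgAPPsweOCN;Ai9 cells. Named after their values were seen, Aif1 (2.04) and Adgre1 (1.89) had the largest rises in log2 fold change and Mrc1 (-2.38) and Lgals3 (-1.79) the largest falls. Their part in the changes of the Ms4a genes was not tested. Among 14 tested stromal markers, 2 were up-regulated and 0 down-regulated (median 0.43), again beside 8.9% and 9.2% of all tested genes. The 2 were the matrix genes Lum and Dcn, also named after their values were seen. By the adjusted p alone 4 were higher and 2 lower, beside 32.5% and 31.5% of all tested genes. The lower 2, Sp7 (log2 fold change -0.78) and Pdgfrb (-0.55), were named after their values were seen as well. Dcn had a log2 fold change of 3.92 and reached 1.27 to 10.27 FPKM in TgAPPsweOCN;Ai9 libraries. Lum had 0, 1 and 0 estimated counts in control and 28, 35 and 38 in TgAPPsweOCN;Ai9 libraries, at most 0.87 FPKM. Summed FPKM of markers of other blood cells that express Ms4a genes was 0.89 to 1.45 in control and 3.28 to 3.7 in TgAPPsweOCN;Ai9 libraries for B cells, where 1 of 5 genes was tested and Cd79b was up-regulated (log2 fold change 1.75). The sums were 0.07 to 0.21 and 0 to 0.18 for T and NK cells without Ms4a4b, which shares reads with Ms4a4c and with which they were 0.75 to 0.9 and 0.72 to 1.91. They were 0.55 to 0.6 and 0.79 to 0.96 for dendritic cells, 0.75 to 0.95 and 0.54 to 0.78 for mast cells and basophils, and 10.56 to 41.58 and 15.81 to 35.11 for neutrophils and progenitors. Of the 5 dendritic cell markers 2 were tested and Xcr1, a chemokine receptor, was up-regulated (log2 fold change 1.88). Cd79b and Xcr1 were named after their values were seen. The part of these cells was not tested either. The plot by gene list sets the Ms4a genes beside these lists.

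**Figure D5:**
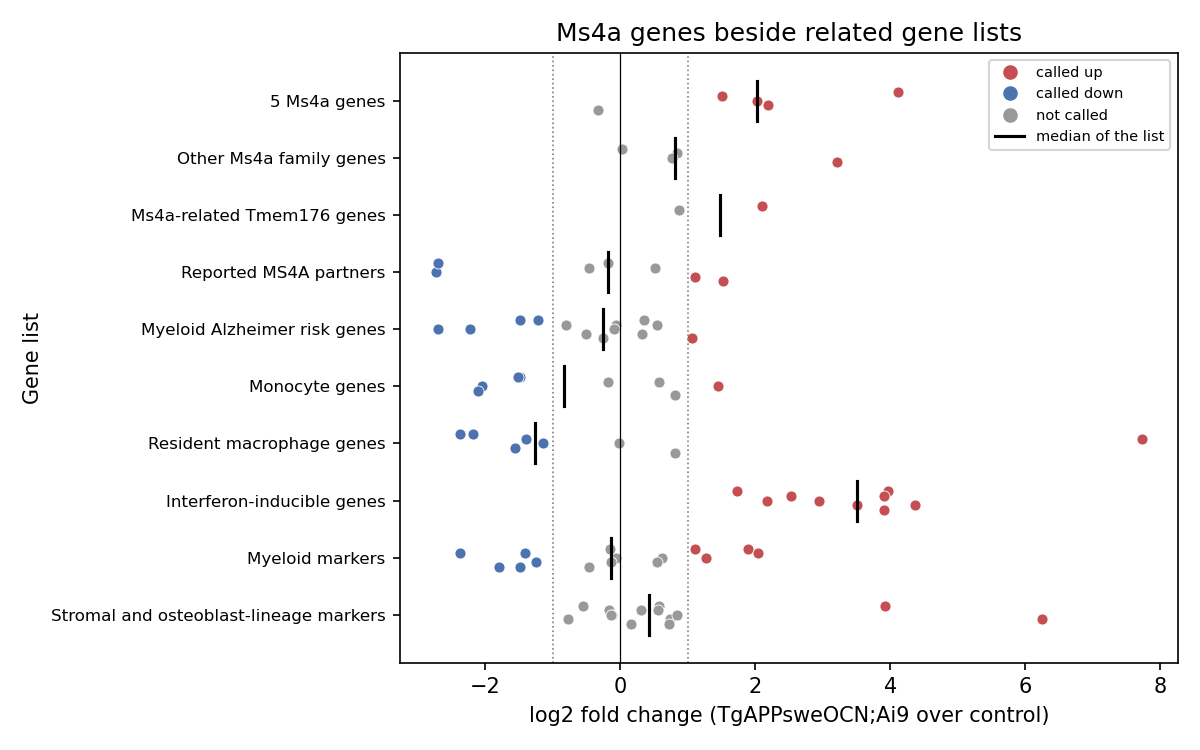
Log2 fold changes of tested genes, 1 point per gene in rows by list, red for up-regulated, blue for down-regulated and grey for not called, with the median of each list in black. The 5 Ms4a genes have a median of 2.02, the interferon-inducible genes 3.50, and the resident macrophage genes -1.27.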

How the data were processed

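RNA-seq was measured in tdTomato+ cells sorted from BMSC cultures, with 3 libraries per genotype, grouped by the genotype and replicate in the labels. Per the submitters' processing notes, the tools were HISAT2 2.0.4, Bowtie2 2.2.5, RSEM 1.2.12 and DESeq2 1.4.5 and the build was mm10, the assembly also called GRCm38. The annotation and strand setting of the counting are not given in the sources used here. The authors deposited estimated counts, which can be fractional, and FPKM values for the same genes. RNA-seq depth is given in the report. A further table by the authors holds their own log2 ratios and p-values, which were not used, as were 4 columns of genotype averages.

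Estimated counts were rounded, and the genotypes were compared by the quasi-likelihood test of edgeR 4.0.16 in R 4.3.3, with filterByExpr, TMM and no replicate block, over 12701 genes. A call needed a Benjamini-Hochberg adjusted p of at most 0.05 together with an absolute log2 fold change of 1 or more. The TMM factors were 1.07 to 1.08 in control and 0.91 to 0.944 in TgAPPsweOCN;Ai9 libraries. The biological coefficient of variation was 9.85%. Ratios and levels used FPKM and exact permutation tests. Alternatives were RLE factors, library size only, filters of 1 count in any or 10 counts in every library, unrounded or floored counts, DESeq2 1.42.0, a replicate block, limma 3.58.1 on log2(FPKM + 1) with and without the filter or log2(FPKM + 0.1), the adjusted p alone and leaving out each library. Sequences were read in Python 3.11.15 with Biopython 1.88 from RefSeq and GENCODE tables of GRCm38, and coding sequences were aligned in pairs.

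The genes and lists were chosen with earlier results of these data known. By rule, all 5 Ms4a genes, other listed family and Tmem176 genes, up to 4 called genes with the largest change per list (cell type marker lists are given by counts and sums), and the 3 genes most like each of the 5 are named. Genes named for other reasons are said to be so or illustrate a range, and a few list genes are counted but not reported here by name.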

Additional observations from a re-analysis of the deposited data

How the results depend on the processing

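Over 26 results, 249 values were recomputed under alternatives that could move them (the replicate block cannot move the ratios). The direction reversed in 0 of them and 244 were counted as kept. A fold change was kept when it stayed on its side of the thresholds, and a count when it stayed within 1.5 times. A ratio was kept when it moved by less than the SD within genotypes, pooled over both genotypes. The log2 fold change ranged from 3.59 to 4.38 for Ms4a4c, from 1.28 to 1.61 for Ms4a6b, from 1.75 to 2.10 for Ms4a6c, from 1.96 to 2.29 for Ms4a6d and from -0.54 to -0.30 for Ms4a7, and 4 of the 5 genes were up-regulated in every one of the 18 alternatives. The highest adjusted p over them was 1.67e-04, 2.74e-04, 4.24e-05, 2.40e-05 and 0.0119 in the same order. The lowest values of the 4 rises came from limma on FPKM.

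Called by the adjusted p alone, 1 of the 5 genes was down-regulated in place of 0 (edgeR; 1 also at an unadjusted p under 0.05, and 0 of 5 by DESeq2 with the fold threshold). This rule also gave 2 other Ms4a genes in place of 1, 2 Tmem176 genes in place of 1, and 11 Alzheimer risk genes in place of 5. By the same rule 32.5% of all tested genes were higher and 31.5% lower. Here the fold threshold is the only difference.

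The replicate block gave 3 called monocyte genes in place of 5, and the cause was not tested. Same-numbered libraries of the genotypes deviated together with correlations of 0.0127, 0.00664 and 0.141, and 1 of 3 control libraries correlated best with its own number. The labels give only the number, and with 3 libraries per genotype this check cannot tell whether same-numbered libraries were handled together. Under the replicate block the log2 fold changes were 4.09 (Ms4a4c), 1.51 (Ms4a6b), 2.02 (Ms4a6c), 2.18 (Ms4a6d) and -0.32 (Ms4a7), and no call among the 5 changed. At this depth 6 listed family genes had too few counts to be tested, and with 3 libraries per genotype no exact test of a single value could go below 0.1.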

Other observations

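Of 8 genes typical of monocytes, 1 was up-regulated and 4 were down-regulated, beside 8.9% and 9.2% of all tested genes. Their median log2 fold change was -0.83. F13a1, a clotting factor subunit, fell by 2.11 on the log2 scale, Cx3cr1, a chemokine receptor, fell by 2.05, Nr4a1 fell by 1.51 and Ccr2 fell by 1.48. In place of these 5 calls there were 4 with DESeq2, 4 with scaling by library size alone and 3 under the replicate block. Ccr2 did not pass the adjusted p threshold with DESeq2 (adjusted p = 0.101) or with edgeR under the block (0.0854), and the 1 rise was not called with library size alone or under the block.

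Of 8 tested resident macrophage genes, 5 were down-regulated and 1 was up-regulated (median -1.27), beside 9.2% and 8.9% of all tested genes. Mrc1, the mannose receptor, fell by 2.38, Cd163, a haemoglobin scavenger receptor, fell by 2.18 and Gas6, a ligand of TAM receptors, fell by 1.57. Cd209f, a lectin whose estimated counts were fractional in every library, rose by 7.73 from 0.49 to 1.37 FPKM to 125.39 to 244.42 FPKM. In TgAPPsweOCN;Ai9 cells Cd209f was highest in library 1 and lowest in library 2, as Ms4a6b, Ms4a6c and Ms4a6d were. Of all tested genes 21.2% had this order.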
